A study of Mus musculus with 8 samples.

Results

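The regions described here are 810 stretches of the mouse genome that carried a CUT&Tag peak of NanogBiD, of Oct4BiD and of Sox2BiD, and no peak of native Nanog, Oct4 or Sox2. They were chosen by the deposited peak calls themselves. The peaks of these 6 libraries were merged wherever they overlapped by 1 bp or more, which gave 241500 merged regions, and the 810 are 0.335% of them. Since the peaks of the 6 libraries selected the regions, the presence of 3 fusion peaks and the lack of native peaks are a description and were not tested.

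The study asked whether a transcription factor that is tied to a chromatin remodeller binds and opens chromatin differently during reprogramming. Each library came from mouse embryonic fibroblasts (MEFs) on day 3 of reprogramming and was made with an antibody to the Flag tag. The groups are native Nanog, Oct4, Sox2 and Nr5a2 and the fusion of each, NanogBiD, Oct4BiD, Sox2BiD and Nr5a2BiD, with 1 library a group, so no value below has a replicate. All 8 groups share the cells, the day and the antibody. Per the study's methods the factors were introduced with retroviral vectors, so each tagged form was made in addition to what the cells express. Peak lists hold no expression values, so the cell type could not be checked against its marker genes. Whether other factors were delivered beside the tagged one is not stated in the labels, and there was no untreated or untagged control library. The lists held from 54794 peaks (Oct4) to 120594 peaks (Sox2BiD). For each of the 3 factors the fusion had more peaks than the native form, whereas for Nr5a2 the native form had more, 108030 against 76217. The lists hold no read totals. By the study's reporting summary the form with the longer list had fewer read pairs than its partner for Oct4, Sox2 and Nr5a2, and more for Nanog.

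BiD is the part of SS18 through which that subunit contacts BRG1, the ATPase of the BAF (SWI/SNF) remodelling complex, which uses ATP to move and evict nucleosomes. OCT4 is a POU factor that reads the octamer, SOX2 an HMG-box factor that bends DNA at a short AT-rich site, and NANOG a homeodomain factor. The 3 are the core of the pluripotency network and often share enhancers in embryonic stem cells. NR5A2 is an orphan nuclear receptor that can stand in for OCT4 in reprogramming. In CUT&Tag a Tn5 transposase is brought to the tagged protein and cuts there, and since open DNA is also cut readily, promoters and enhancers that are already open can give peaks. In fibroblasts many open enhancers carry AP-1 (FOS and JUN) and TEAD sites.

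The windows below show the sequence around the region summits, where a summit is the point of highest tag pile-up. The 3 fusion summits of a region can lie further apart than the window is long. Each window spans 201 bases of the plus strand of GRCm38 (mm10), 100 to either side of the region summit, which is the median of the 3 fusion summits. In other classes of region it is the median of the strongest summits of all libraries with a peak there. Capitals mark the match to the motif named. The octamer was searched as ATGCAAAT, the SOX motif as CCATTGTT, the NANOG motif as GCCATTA, and the AP-1 motif as TGACTCA or TGAGTCA, each on both strands. Regions were ranked by the lowest of the within-library score percentiles of their 3 fusion peaks, so that a high rank needs 3 strong peaks. The highest-ranked region with each motif is shown. It serves as an example of a fusion-only region with a site for one of the delivered factors or for the fibroblast factor AP-1. Rank reflects peak strength and not where the motif lies.
NANOG motif, intron of Cachd1, chr4:100811044-100811244: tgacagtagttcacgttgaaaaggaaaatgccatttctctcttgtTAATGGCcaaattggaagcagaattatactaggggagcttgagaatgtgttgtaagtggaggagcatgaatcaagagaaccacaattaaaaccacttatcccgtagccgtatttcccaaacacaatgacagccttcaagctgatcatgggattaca
octamer, intergenic, nearest gene Adtrp, chr13:41747776-41747976: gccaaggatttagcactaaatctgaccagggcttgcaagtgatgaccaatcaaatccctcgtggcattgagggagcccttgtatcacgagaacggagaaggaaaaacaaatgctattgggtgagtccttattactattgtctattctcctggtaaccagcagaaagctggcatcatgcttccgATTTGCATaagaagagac
AP-1 motif, nearest gene Wdfy3, chr5:102055558-102055758: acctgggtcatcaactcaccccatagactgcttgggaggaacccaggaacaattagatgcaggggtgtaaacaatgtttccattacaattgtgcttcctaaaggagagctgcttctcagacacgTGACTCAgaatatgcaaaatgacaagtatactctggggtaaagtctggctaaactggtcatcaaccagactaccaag
SOX motif, nearest gene Mki67, chr7:136047157-136047357: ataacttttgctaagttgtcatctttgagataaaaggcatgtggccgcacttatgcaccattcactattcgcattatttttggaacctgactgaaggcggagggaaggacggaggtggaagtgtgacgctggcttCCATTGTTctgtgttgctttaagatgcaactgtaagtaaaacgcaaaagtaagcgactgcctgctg
The Cachd1 region ranked 1 of 810, the Adtrp region 6, the Wdfy3 region 12 and the Mki67 region 78. The Adtrp and Mki67 regions were intergenic, 52.7 kb and 331 kb from the start site of the gene that names them. The octamer of the Adtrp region began 83 bp from the region summit, near the edge of its window. The SOX match of the Mki67 region began 35 bp from the summit there. The 3 summits spread over 1450 bp in the Cachd1 region and 1729 bp in the Adtrp region. Not every fusion summit lay in those windows, so a motif shown need not lie under the peak of its own factor.

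A further pair of windows shows joint sites. The first is the highest-ranked region with a joint SOX-octamer, the composite site that OCT4 and SOX2 bind together. It was searched as CATTGT, 1 free base and ATGCAAAT with up to 2 mismatches, and the match shown had 1 mismatch. The second was chosen after the values were seen, as the region with the most kinds of these motifs. It held 3 kinds, an octamer, an AP-1 motif and a NANOG motif.
joint SOX-octamer, nearest gene Sh3rf1, chr8:61215793-61215993: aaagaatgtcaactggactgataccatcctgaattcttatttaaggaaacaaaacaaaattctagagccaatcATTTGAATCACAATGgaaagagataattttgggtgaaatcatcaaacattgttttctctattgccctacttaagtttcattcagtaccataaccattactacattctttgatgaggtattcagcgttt
octamer, AP-1 and NANOG motifs, nearest gene Gdf15, chr8:70641939-70642139: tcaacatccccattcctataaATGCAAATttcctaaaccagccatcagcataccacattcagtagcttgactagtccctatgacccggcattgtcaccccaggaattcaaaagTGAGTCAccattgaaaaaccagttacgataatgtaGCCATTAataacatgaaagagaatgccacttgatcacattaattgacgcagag
The Sh3rf1 region ranked 30 and the Gdf15 region 796, so the window with the most motifs belonged to one of the weakest regions. The regions ranked 2 and 3, near Stc1 and in C330002G04Rik, held none of the octamer, SOX, NANOG and AP-1 motifs in their windows, as most of the 810 did.
ranked 2, nearest gene Stc1, chr14:68921105-68921305: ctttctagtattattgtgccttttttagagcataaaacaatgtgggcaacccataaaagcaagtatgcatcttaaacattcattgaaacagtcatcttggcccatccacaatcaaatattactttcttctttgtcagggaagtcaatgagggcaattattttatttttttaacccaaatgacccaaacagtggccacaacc
ranked 3, nearest gene Klf9, chr19:23007064-23007264: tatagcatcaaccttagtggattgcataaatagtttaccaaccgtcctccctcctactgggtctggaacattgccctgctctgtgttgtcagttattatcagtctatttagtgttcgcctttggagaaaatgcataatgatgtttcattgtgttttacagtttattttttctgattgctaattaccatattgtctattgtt

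The count of 810 has to be read beside the other ways of taking 1 form of each factor, since peak number differs between the forms. There are 8 such assignments. The count with native Nanog, Oct4BiD and Sox2BiD was 292 (0.121% of the merged regions), and it was 91 with native Nanog, native Oct4 and Sox2BiD (0.0377%). It was 57 with NanogBiD, native Oct4 and Sox2BiD (0.0236%), 38 with the 3 native forms (0.0157%) and 34 with native Nanog, Oct4BiD and native Sox2 (0.0141%). The remaining assignments gave 8 with NanogBiD, Oct4BiD and native Sox2 (0.00331%) and 6 with NanogBiD, native Oct4 and native Sox2 (0.00248%). The assignments with Sox2BiD, whose list was the longest, gave more regions than those with native Sox2 and the same other forms. Peak number and form cannot be told apart in these whole lists.

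Lists of equal length gave another order. With the 50000 highest-scoring peaks of each list the 3 fusions gave 93 regions and the 3 native forms gave 139, so that the mirror pattern was the more frequent. With the 20000 highest-scoring peaks the counts were 26 and 51. In both cases the 3 fusions came second among the 8 assignments and the 3 native forms first. The regions also changed: 36 of the 93 overlapped one of the 810, and 0 of the 26 did.

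**Figure D1:**
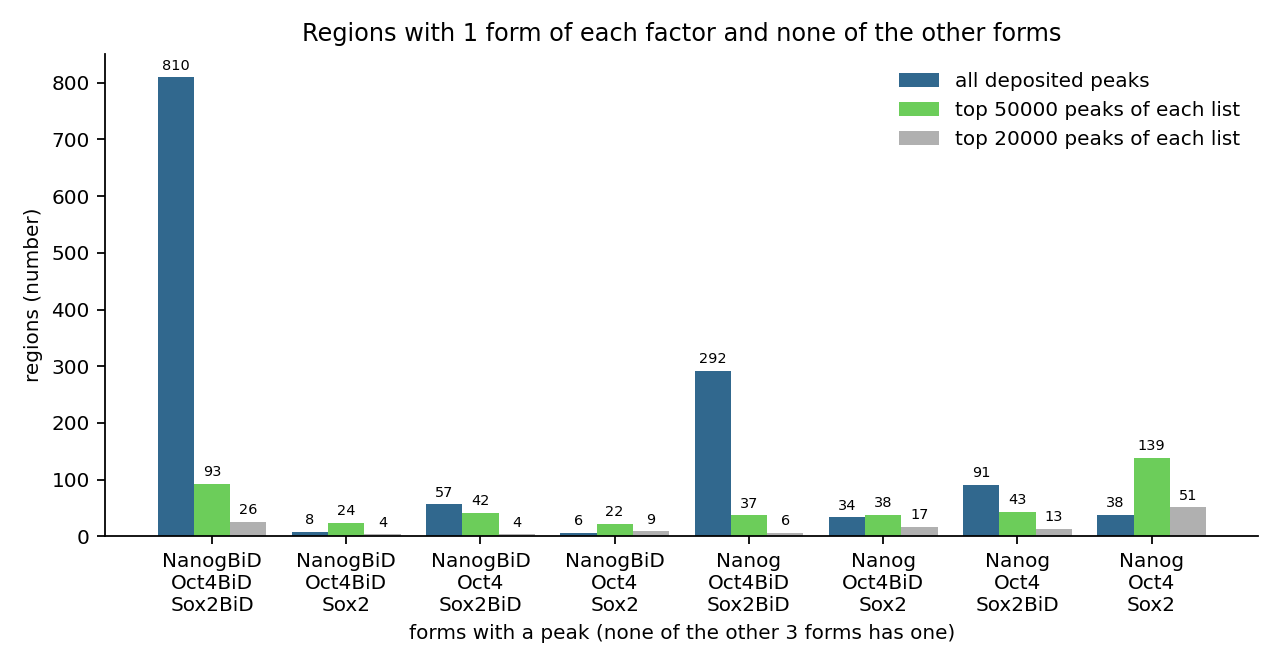
Bars give the number of regions (y axis, from 0) for each of the 8 assignments of form (x axis), with all deposited peaks, the top 50000 and the top 20000 peaks of each list. With all peaks the 3 fusions stand highest at 810, and with equal lists the 3 native forms stand highest at 139 and 51.

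A peak of all 3 fusions was found at 17761 regions (7.35% of the merged regions), and at most of these a native factor had a peak as well. All 3 native forms were present at 7075 of them (39.8%), and native Nanog with native Oct4 but not Sox2 at 4438 (25%). Native Nanog was the one native form at 2619 (14.7%), native Oct4 at 340 (1.91%) and native Sox2 at 298 (1.68%). The 810 regions with no native peak make up 4.56% of the 17761. For the mirror, 38 of the 9295 regions with all 3 native forms (0.409%) had no fusion peak.

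The fusion peaks at the 810 regions were weak. The median score, which is 10 times the negative log10 of the peak's p-value, was 85.7 in NanogBiD, 107 in Oct4BiD and 100.5 in Sox2BiD. Across all peaks of these libraries the medians were 138, 135 and 150.0. The median summit height at the 810 was 15 tags in NanogBiD, 16 in Oct4BiD and 16 in Sox2BiD, where the lowest height of any peak was 8, 7 and 7. On the scale of percentiles within the library the medians were 27.9, 39.1 and 32.9. At the regions with peaks in all 6 libraries they were 82.1, 79.5 and 77.9, and at the 9876 regions with 3 fusions and 1 or 2 native forms 64.0, 59.1 and 50.6. The 292 regions with native Nanog, Oct4BiD and Sox2BiD alone were about as weak, with medians of 37.0 in Oct4BiD and 32.5 in Sox2BiD, so low strength was not particular to the 810. Among regions with all 3 fusions the median percentile was lowest with no native form, higher with 1 or 2 and highest with all 3. This held in each of the 3 libraries, with broad overlap between the classes, and regions with 1 and with 2 native forms were not separated. Since the calls that chose the regions depend on strength, this was not tested.

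**Figure D2:**
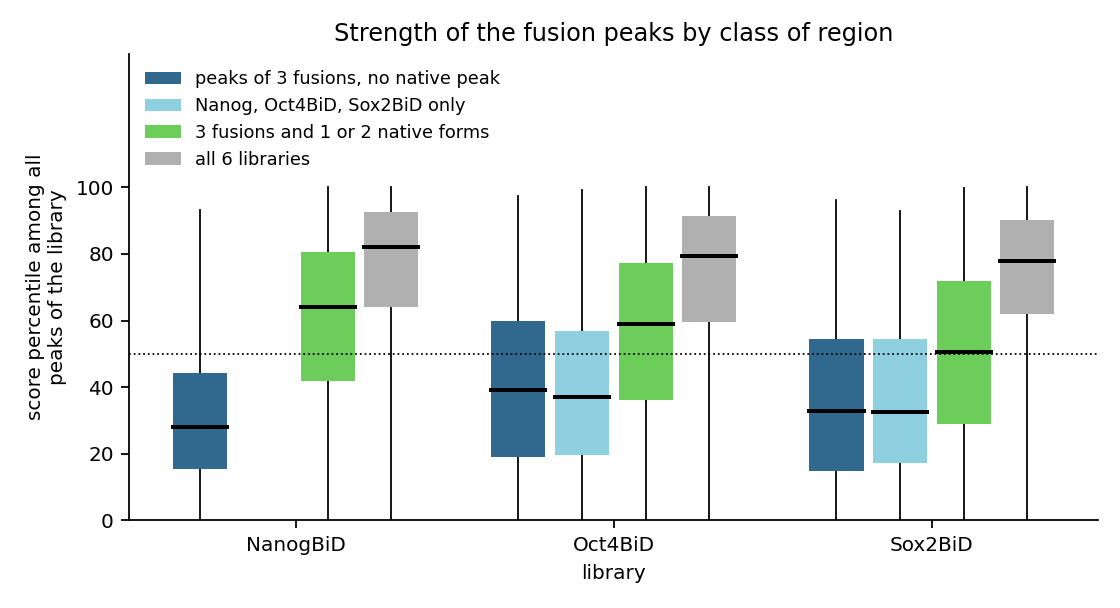
Boxes show the middle of the score percentiles (lower to upper quartile, y axis) of the fusion peaks in NanogBiD, Oct4BiD and Sox2BiD (x axis) for 4 classes of region, with the median as a thick bar and the range as a line. The 810 regions (27.9, 39.1 and 32.9) stand near the regions of native Nanog, Oct4BiD and Sox2BiD (37.0 in Oct4BiD and 32.5 in Sox2BiD, no NanogBiD peak), and the regions of all 6 libraries stand highest.

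Few of the 810 ranked high in their library. Among the 5000 strongest peaks of a library there were 0 of them in NanogBiD, 8 in Oct4BiD and 1 in Sox2BiD. Among the 20000 strongest there were 29, 78 and 37. The weakest of a region's 3 peaks was the NanogBiD peak in 340 regions, the Sox2BiD peak in 273 and the Oct4BiD peak in 197. The lowest of the 3 percentiles had a median of 13.6 and reached 74.1 in the Cachd1 region.

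Merging joins peaks that overlap, so some overlap among the peaks of a region is set by the rule. In 728 of the 810 (89.9%) at least 1 base was covered by all 3 fusions, and in the others the peaks were joined through a chain of overlaps. That share was not computed for other classes of region. In 782 the region held exactly 3 peaks. The distance between the outermost of the 3 summits had a median of 270 bp and ranged from 3 to 2868 bp. It was 100 bp or less in 20% of the 810 and in 31.1% of the regions of all 6 libraries, whose median was 215 bp. The upper quartile ran the other way, 655 bp in the 810 and 775.5 bp in the regions of all 6 libraries, which are wider. The 810 were 454 to 5146 bp wide with a median of 1190 bp, against 858 bp for all merged regions and 2148 bp for the regions of all 6 libraries.

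The median gap from the edge of a region to the nearest native peak was 5.27 kb, and 384 of the 810 (47.4%) lay within 5 kb of one. The gap was not computed for other regions, so whether the 810 lay closer to native peaks than other places was not tested. A native peak lay within 1 kb of 106 (13.1%) and within 100 bp of 3. The nearest was at 26 bp, a native Sox2 peak beside a region at the start of Cdh12, which encodes a cadherin. The next were at 58 bp from a native Sox2 peak (in Alg14, an enzyme gene of protein glycosylation), 74 bp from a native Nanog peak (in 2310022B05Rik), 104 bp from a native Oct4 peak (in Pigl, of GPI-anchor synthesis) and 106 bp from a native Oct4 peak (in Mettl8, an RNA methyltransferase). Just outside the rule were regions with all 3 fusions whose single native peak overlapped the fusion peaks by 15, 62, 117, 181 and 185 bp. Those native peaks had scores of 66.7, 64.6, 50.4, 54.6 and 140, where 50 is the lowest score in any list. Of the 3153 regions with all 3 fusions and exactly 1 native peak, that peak scored below 60 in 274 (8.69%). A region without a native peak is one in which no pile-up passed the caller's threshold, and the lists do not show how much native signal was there.

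The strongest fusion-only regions lay mostly away from promoters. The first was an intron of Cachd1, which encodes a membrane protein related to calcium channel subunits (ENSMUSG00000028532.14, region chr4:100809438-100812108), 34.5 kb from its start site. Its summit heights were 19 tags in NanogBiD, 51 in Oct4BiD and 26 in Sox2BiD, and its scores 248, 554 and 333. Its 3 summits spread over 1450 bp, so it was strong in all 3 libraries without a common summit. The nearest native peak was an Oct4 peak 9.58 kb away.

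The region ranked 2 was intergenic (chr14:68920549-68923459), 108 kb from Stc1, the gene of the secreted hormone stanniocalcin 1 (ENSMUSG00000014813.9). Its heights were 28 tags in NanogBiD, 36 in Oct4BiD and 51 in Sox2BiD. Both Nr5a2 forms had a peak there. The region ranked 3 (chr19:23006561-23008396) had the highest Oct4BiD score of the 810, 623, with heights of 23 tags in NanogBiD, 44 in Oct4BiD and 20 in Sox2BiD. It lay 134 kb from Klf9, a Krüppel-like factor gene (ENSMUSG00000033863.2), and neither Nr5a2 form had a peak there.

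Regions 4 and 5 were intronic and had close summits. In Insig2, whose product holds back sterol synthesis in the endoplasmic reticulum (ENSMUSG00000003721.14, region chr1:121314731-121315673), heights were 22 tags in NanogBiD, 26 in Oct4BiD and 26 in Sox2BiD. The 3 summits lay within 202 bp. In Zfhx3, a zinc-finger homeobox factor gene (ENSMUSG00000038872.10, region chr8:108671766-108673354), heights were 37, 34 and 23 tags in the same order. The summits there lay within 111 bp, and NanogBiD was the strongest of the 3 by percentile (90.9, against 76.5 and 63.2).

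Of the remaining regions among the first 10, Nupr1l and Cxxc4 were promoters and the others were not. The Adtrp region (chr13:41746847-41749449) had heights of 23 tags in NanogBiD, 50 in Oct4BiD and 54 in Sox2BiD, and lay 0.264 kb from a native Sox2 peak. The region 59.8 kb from Ppp3ca, the gene of a calcineurin catalytic subunit (chr3:136609535-136610641), had heights of 13, 31 and 21 tags and held an octamer. The region in Marveld3, a tight-junction gene (chr8:109956916-109958554), had heights of 18, 27 and 34 tags. Across the first 10, Nr5a2 peaks of both forms were present at the Stc1, Adtrp, Nupr1l and Marveld3 regions and absent at the other 6.

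The strongest promoter regions were those with the summit within 2 kb of the start site of a protein-coding gene. At Nupr1l (ENSMUSG00000095789.6, region chr5:129907881-129909172) the summit was 64 bp from the start site, with heights of 16 tags in NanogBiD, 28 in Oct4BiD and 46 in Sox2BiD. At Cxxc4, which encodes a CXXC zinc-finger inhibitor of Wnt signalling (ENSMUSG00000044365.15, region chr3:134238028-134241138), heights were 46, 45 and 34 tags and the 3 summits lay within 98 bp. That was the tallest NanogBiD peak of these 8 promoters, and its window held an octamer. The 6 that followed were 2010111I01Rik, BC017158, Pskh1 (a kinase gene), Cox6b2 (a cytochrome c oxidase subunit of testis), Zfp300 and Ddx58, the gene of the RNA sensor RIG-I. Their heights ran from 10 to 28 tags in NanogBiD, from 14 to 23 in Oct4BiD and from 14 to 52 in Sox2BiD. An Nr5a2 peak of the native form was present at 6 of these 8 promoters and absent at Cxxc4 and 2010111I01Rik, the pair that held an octamer.

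The regions were scattered over genes. Of the 810, 731 (90.2%) had a protein-coding start site within 100 kb, and these fell to 706 genes, of which 682 had 1 region and 23 had 2. Nck2, an SH2 and SH3 adaptor gene (ENSMUSG00000066877.11, chr1:43444579-43570515), was the one gene with 3 or more. It had 3 regions, at 14.4 to 61.8 kb, of the 54 merged regions assigned to it, and none of the 3 had an Nr5a2 peak. Another member summit lay within 50 kb of 65 regions (8.02%), and the one run of 3 lay near Plekhd1, Ccdc177 and Susd6 on chromosome 12 over 68.3 kb. By chromosome there were from 2.49 members per 1000 merged regions on X to 4.61 on chromosome 11.

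The fusion-only regions lay near start sites more often than the merged regions at large. They did so less often than regions where all 3 fusions and at least 1 native form had a peak. The summit was within 2 kb of a start site of any gene class in 305 of the 810 (37.7%, exact 95% interval 34.3 to 41.1). In the other 240690 regions the share was 14.6%, a difference of 23.0 points (Newcombe interval 19.8 to 26.4). In the regions of all 6 libraries it was 48.3%, a difference of -10.7 points (-14.1 to -7.09). With 3 fusions and 1 or 2 native forms it was 50.6% (-12.9 points, -16.4 to -9.41). In the 292 regions with native Nanog, Oct4BiD and Sox2BiD alone it was 27.4% (exact 95% interval 22.4 to 32.9). These intervals and those below cover the counting of regions alone. Regions of 1 library are not replicates of a condition, and the intervals say nothing of a repeat of the experiment.

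Away from start sites, 259 summits (32.0%) were in introns, 223 (27.5%) were intergenic and 23 (2.84%) in exons. The median distance to the nearest protein-coding start site was 8.04 kb, against 30 kb for all merged regions and 6.07 kb for the regions of all 6 libraries. Among the 203 regions of lowest rank 40.9% were within 2 kb of a start site, and among the 203 of highest rank 29.1%. The windows had a median GC content of 48.8%, against 42.3% over all merged regions and 49.8% over the regions of all 6 libraries. The mean number of CpG in a window was 6.59, against 2.38 and 7.86 in the same order. Bases in the repeat-masked part of the genome made up 10.2% of the windows on average, against 17.4% and 7.87%.

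**Figure D3:**
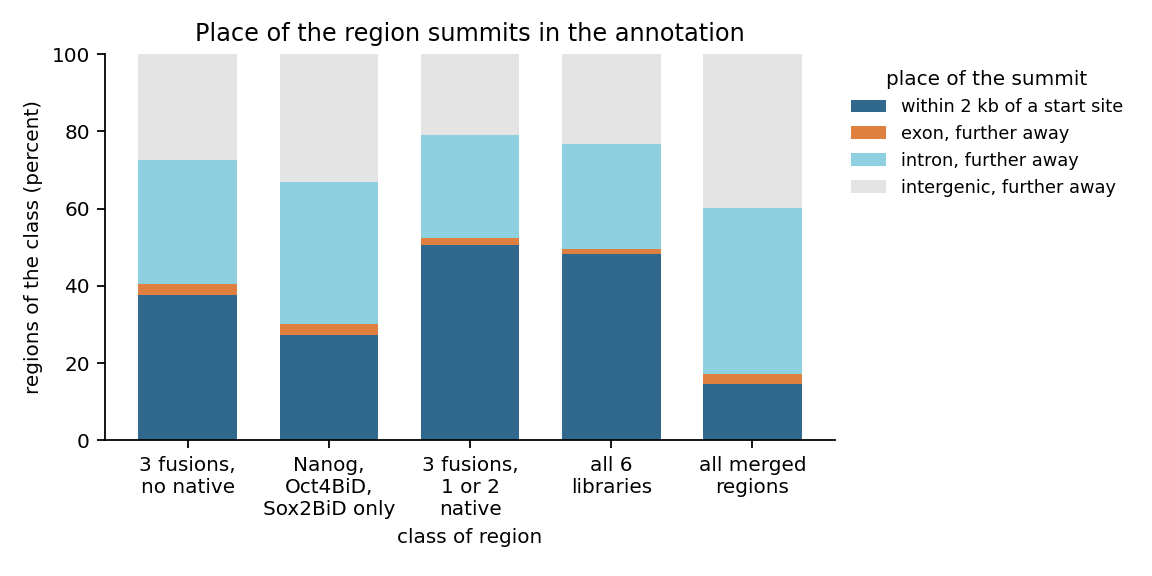
Stacked bars give the percent of regions (y axis) whose summit lies within 2 kb of a start site or, further away, in an exon, an intron or between genes, for 5 classes of region (x axis). The fusion-only regions (37.7% within 2 kb) sit between all merged regions (14.7%) and the regions of all 6 libraries (48.3%).

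Peaks of Nr5a2, from 1 library of each form, were not used to choose the regions. They are not independent of the other lists, since the cells, day, antibody and assay were shared and there was no untagged control. Of the 810 regions 417 (51.5%) overlapped a peak of at least one Nr5a2 form. Native Nr5a2 had a peak at 390 (48.1%, exact 95% interval 44.7 to 51.7) and Nr5a2BiD at 290 (35.8%, 32.5 to 39.2). Both forms were at 263, native Nr5a2 alone at 127 (15.7%) and Nr5a2BiD alone at 27 (3.33%). Over all merged regions native Nr5a2 alone was at 5.1% and Nr5a2BiD alone at 2.19%, so the native form was the more frequent one there too. Its peak list is also the longer one, and list length and form cannot be told apart. A region that gained all 3 other fusions thus had a native Nr5a2 peak more often than an Nr5a2BiD peak.

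Compared with the other merged regions, the share with native Nr5a2 was 29.2 points higher (Newcombe interval 25.8 to 32.6) and the share with Nr5a2BiD 19.7 points higher (16.5 to 23.1). Compared with the regions of all 6 libraries, of which 67.9% had native Nr5a2 and 68.5% Nr5a2BiD, the differences were -19.7 points (-23.3 to -16.1) and -32.7 points (-36.1 to -29.1). In those regions the 2 Nr5a2 forms had nearly the same share, whereas in the 810 the fusion had the lower share. That order was not particular to the 810. The 292 regions with native Nanog, Oct4BiD and Sox2BiD alone had 38.4% native and 32.2% fusion. Regions with 3 fusions and 1 or 2 native forms had 64.3% and 59.6%. Smaller assignments went either way, with 35.1% and 22.8% of the 57 regions and 24.2% and 28.6% of the 91. Region width differs between the classes, and a wider region meets more peaks by its size. With a window of 100 bp to either side of the summit in place of the region, 42.3% of the 810 met a native Nr5a2 peak and 32.2% an Nr5a2BiD peak. The same windows gave 15.2% and 13.7% over all merged regions, and 60.4% and 63.1% over the regions of all 6 libraries. With the 50000 highest-scoring peaks of each list the shares were 25.8% native and 29.0% fusion of 93 regions, the reverse order, and with the 20000 highest-scoring 26.9% native and 23.1% fusion of 26 regions.

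The Nr5a2 peaks at the 810 regions were of middling strength. The strongest overlapping peak had a median score percentile of 58.1 in native Nr5a2 and 46.3 in Nr5a2BiD. The share of regions with a native Nr5a2 peak was 53.7% among the 203 of lowest rank and 44.8% among the 203 of highest rank. For Nr5a2BiD it was 36.5% and 34.5%.

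**Figure D4:**
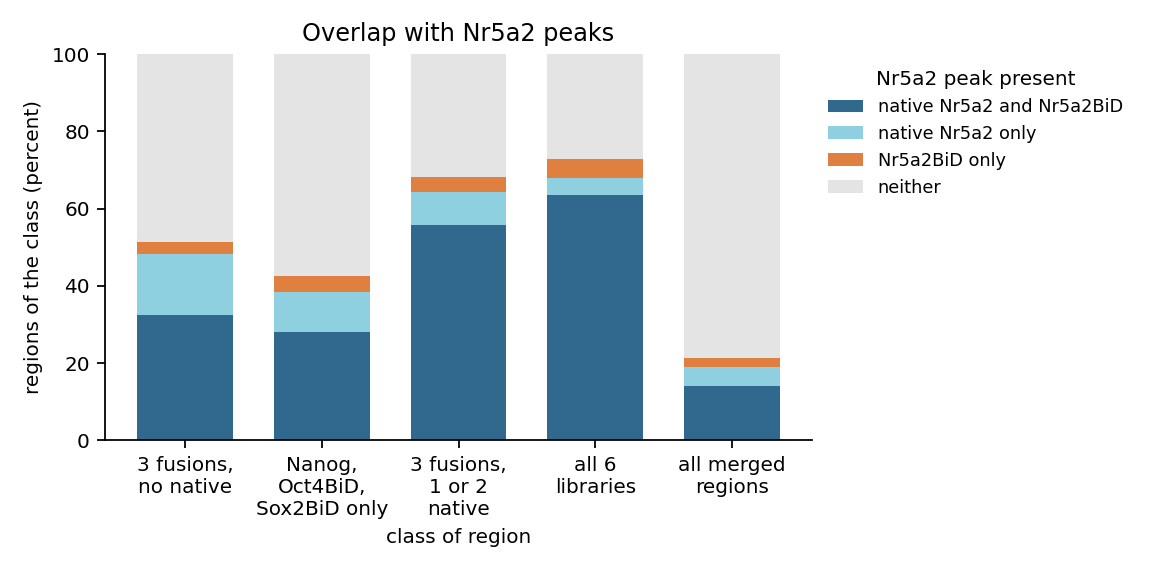
Stacked bars give the percent of regions (y axis) with a peak of both Nr5a2 forms, of the native form alone, of Nr5a2BiD alone or of neither, for 5 classes of region (x axis). Of the fusion-only regions 15.7% had the native form alone and 3.33% Nr5a2BiD alone.

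The 27 regions with Nr5a2BiD and no native Nr5a2 peak carried all 4 fusions and no native form. The strongest was in an intron of Arid1b (ENSMUSG00000069729.14, region chr17:5006507-5008670), 11 kb from the start site of this gene, which encodes a subunit of the BAF complex itself. Its heights were 29 tags in NanogBiD, 32 in Oct4BiD and 22 in Sox2BiD, with the summits within 192 bp. The next lay in an exon of Ermp1, a metallopeptidase gene (heights 18, 21 and 14 tags), and at the start site of Rnaseh1, whose enzyme cuts RNA in RNA-DNA hybrids (12, 18 and 14 tags). They were followed by a region 9.08 kb from Plekhd1 (19, 29 and 37 tags) and one in an intron of Ctif, 87.2 kb from Smad7, the inhibitory SMAD gene (22, 21 and 26 tags). No motif of the 3 factors lay in the windows of these 5 regions.

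Most of the windows held no site for the delivered factors in the strict form searched. At least 1 of the octamer, SOX and NANOG motifs was in 77 of the 810 windows (9.51%), and in 5.87% of the windows of the regions of all 6 libraries. A pair of these motifs was in 4 windows, and all 3 in 0 of 810, an exact upper limit of 0.454%. The octamer was the most frequent, in 46 windows (5.68%, exact 95% interval 4.19 to 7.50). In the flanks, windows of the same length centred 1000 bp to either side, it was in 18 of 1620 (1.11%). It was in 3.04% of the windows of the regions of all 6 libraries, so the fusion-only regions were 2.64 points higher (Newcombe interval 1.18 to 4.49). Over the other merged regions the share was 5.37%, a difference of 0.309 points with an interval from -1.09 to 2.12.

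The SOX motif was in 16 windows (1.98%), against 0.617% of the flanks, 2.43% of the other merged regions and 1.03% of the regions of all 6 libraries (difference 0.943 points, 0.143 to 2.17). The NANOG motif was in 19 (2.35%), against 1.85% of the flanks, 2.60% of the other merged regions and 1.94% of the regions of all 6 libraries (0.409 points, -0.499 to 1.73). The joint SOX-octamer was in 9 windows (1.11%), against 0.523% of the regions of all 6 libraries (0.588 points, 0.0269 to 1.59). In lists of equal length the octamer was in 7.53% of the 93 regions and 19.2% of the 26, and with merged summit windows the SOX motif was in 0.743% of 538. With all peaks the octamer, SOX and joint motifs had somewhat higher shares than in the regions of all 6 libraries, and for the NANOG motif the interval includes no difference. At the Sox2BiD summits, given next, the interval for the SOX motif includes no difference either.

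Around each fusion's own summit the shares were higher. The octamer lay within 100 bp of the Oct4BiD summit in 70 of the 810 (8.64%), against 14.1% of all Oct4BiD peaks and 6.30% of those at regions of all 6 libraries. The difference was -5.54 points from the other Oct4BiD peaks (-7.30 to -3.39) and 2.34 points from the regions of all 6 libraries (0.496 to 4.54). The SOX motif lay by the Sox2BiD summit in 3.46%, against 4.99% of all Sox2BiD peaks (difference from the others -1.55 points, -2.61 to -0.0492). The NANOG motif lay by the NanogBiD summit in 3.33%, against 4.29% of all NanogBiD peaks (-0.962 points, -2.01 to 0.518). So at the places where the 3 fusions meet without a native peak, the own motif of Oct4BiD and of Sox2BiD was less frequent than at their peaks in general. This was not particular to the 810, since the shares at regions of all 6 libraries were lower still. There the SOX share was 2.47% (the 810 minus these 0.983 points, -0.140 to 2.51). The NANOG share there was 2.39% (0.945 points, -0.156 to 2.45), and both intervals include no difference.

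AP-1 motifs were scarce in the fusion-only regions. They lay in 52 of the 810 windows (6.42%, exact 95% interval 4.83 to 8.33), against 15.3% of the regions of all 6 libraries (difference -8.83 points, -10.6 to -6.76) and 12.4% of the other merged regions (-5.93 points, -7.43 to -4.03). The flanks gave 3.70%. The TEAD motif, searched as CATTCC followed by A or T, was in 10.4%, against 14.0% of the other merged regions and 15.5% of the regions of all 6 libraries (-5.09 points, -7.20 to -2.66). The RUNX motif AACCACA was in 5.43%, against 8.95% of the other merged regions and 8.41% of those of all 6 libraries (-2.98 points, -4.50 to -1.09). The AP-1 share was higher in lists of equal length, at 11.8% of the 93 regions from the top 50000 peaks and 15.4% of the 26 from the top 20000. The TEAD share was 14.0% and 15.4% in those lists, and the RUNX share 8.60% and 7.69%. Shares of the comparison classes were not computed in those lists, so whether a difference remained there was not tested. With all peaks, at the regions with 3 fusions and 1 or 2 native forms, AP-1 was in 12.5%, TEAD in 11.4% and RUNX in 7.47%. The TEAD share there lies inside the exact interval of the fusion-only regions (8.36 to 12.7). In the 292 regions with native Nanog, Oct4BiD and Sox2BiD alone, AP-1 was in 14.0%, TEAD in 12.3% and RUNX in 6.51%. Their TEAD and RUNX shares lie inside the exact intervals of the fusion-only regions (for RUNX 3.97 to 7.22), and their AP-1 share lies above. The ETS motif CCGGAAGT, common at promoters, was in 2.10%, close to the 2.01% of the regions of all 6 libraries (0.0914 points, -0.769 to 1.36) and above the 0.341% of the other merged regions (1.76 points, 0.973 to 2.99). The NR5A motif, CAAGG with C or T before it and C or T and then CA after it, was in 13 windows (1.60%), against 2.28% of the flanks and 1.19% of the other merged regions.

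**Figure D5:**
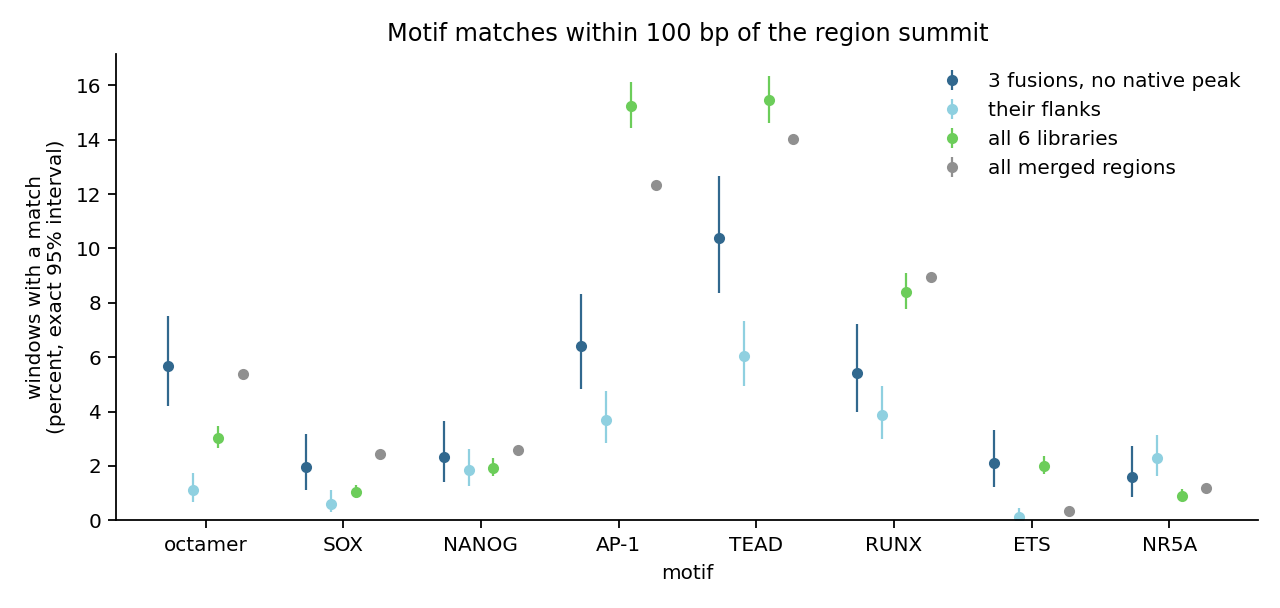
Points give the percent of 201-bp windows with a match to each motif (y axis, from 0, lines are exact 95% intervals over regions) for the fusion-only regions, their flanks, the regions of all 6 libraries and all merged regions (x axis, motif). The octamer stands at 5.68% in the fusion-only regions and 1.11% in their flanks, and AP-1 at 6.42% against 15.3% in the regions of all 6 libraries.

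Within the 810, the start-site share and the shares of some motifs differed between regions with and without an Nr5a2 peak. The same splits were not computed for other classes of region, so whether they are particular to the 810 was not tested. Of the 417 with a peak of either Nr5a2 form 50.8% were within 2 kb of a start site, and of the 393 without one 23.7% were, a difference of 27.2 points (Newcombe interval 20.6 to 33.4). The octamer was in 2.64% of the first and 8.91% of the second, a difference of -6.27 points (-9.70 to -3.10). The NANOG motif was in 0.719% and 4.07%, a difference of -3.35 points (-5.84 to -1.28). The AP-1 motif was in 5.76% and 7.12% (-1.37 points, -4.88 to 2.05).

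Octamers were also rarer near start sites, in 6 of 305 regions (1.97%) against 40 of 505 further away (7.92%). Among the 505 regions further away the octamer was in 8 of 205 with an Nr5a2 peak (3.90%) and 32 of 300 without (10.7%), a difference of -6.76 points (-11.2 to -2.07). The NANOG motif was in 2 of 205 (0.976%) and 14 of 300 (4.67%) there (-3.69 points, -6.79 to -0.562). Near start sites the octamer was in 3 of 212 and 3 of 93 (-1.81 points, -7.72 to 1.59). The set of fusion-only regions that were far from start sites and had no Nr5a2 peak was thus the one with the most octamers.

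Genes of 8 lists of pluripotency, fibroblast, epithelial, lineage, BAF and signalling genes were looked up. These lists were chosen with earlier results of these data known, and the shares are descriptions. Each list had between 1 and 6 members within 100 kb, from 0.123% to 0.741% of the 810, and the share of all merged regions near the same genes ran from 0.140% to 0.470%. No list gathered more than 6 of the 810.

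The list with the most was that of SWI/SNF subunit genes, the complex that BiD contacts, with 6 regions (0.741%), against 0.315% of all merged regions and 0.551% of the regions of all 6 libraries. Besides Arid1b, named above, they included the start of Arid1a (region chr4:133753607-133755351, summit 454 bp from a start site) and the start of Bcl7a (region chr5:123344020-123344935, summit 12 bp away). Those 2 regions ranked 670 and 445, so their fusion peaks were weak.

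Among 40 pluripotency genes, 6 had a region within 100 kb, through 4 regions (0.494%, against 0.3% of all merged regions). A single region 37.9 kb from the Nanog start site, ranked 529, served Nanog, Dppa3 and Gdf3 together. Etv5, an ETS factor gene, was the one with a region within 20 kb: an intron summit 4.18 kb from the start site (region chr16:22405479-22406626), with peaks of both Nr5a2 forms.

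Among fibroblast genes Zeb2, a repressor that drives the mesenchymal state, had an intronic region 6.96 kb from a start site (chr2:45102607-45103811, ranked 71), and Col6a3, a collagen VI chain gene, had one at 18.9 kb. Of the epithelial genes Esrp2, an epithelial splicing regulator, had a region at 4.08 kb (ranked 207). Of the AP-1 genes Junb had regions at 7.06 and 19.3 kb (ranked 419 and 681), which lay at the starts of Rnaseh2a and Hook2. None of these Zeb2, Col6a3 and Esrp2 regions had an Nr5a2 peak, and both Junb regions had peaks of both forms.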

How the data were processed

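Flag CUT&Tag peaks from 8 libraries of reprogramming MEFs were used, 1 library a group. By the submitters' processing notes and the paper's methods, the authors used Trim Galore 0.6.4 for trimming, Bowtie2 2.4.5 for alignment (mm10), SAMtools 1.16.1 for filtering, and MACS 1.4.2 for peaks, with no control named. The methods describe merging of replicates before peak calling, whereas the reporting summary says CUT&Tag was done once, and each group was treated as 1 library. The deposited peak lists hold a score (10 times the negative log10 of p, at least 50) and the deposited summit lists a signal, the pile-up height in tags. The lists carry no read totals and were not scaled to depth here, and counts of regions changed when the lists were cut to equal length.

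Peaks of 6 libraries were merged at 1 bp of overlap with Python 3.11.15, pandas 2.3.3 and pysam 0.24.0. Sequence came from GRCm38.p6, the assembly of mm10, by RefSeq, and genes from GENCODE. Exact (Clopper-Pearson) and Newcombe intervals at 95% used scipy 1.17.1. The scripts were tested on simulated data. The comparisons are descriptions without p-values. Regions named are the 10 of highest rank, the 8 such promoters, the 5 with Nr5a2BiD alone, those nearest the rule's edge, genes with 3 or more regions, list genes with a region within 20 kb, and the highest-ranked region with each motif. The members and lists were chosen with earlier results of these data known. Alternatives were other score minimums, equal list lengths, summit windows, a 1 kb exclusion around native peaks, common coverage, and other windows for start sites and motifs.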

Additional observations from a re-analysis of the deposited data

Results flagged for a closer look

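At the 810 regions the Nr5a2 pair ran opposite to the 3 other factors: 127 had a peak of native Nr5a2 and none of Nr5a2BiD, and 27 had the reverse. The direction in Nanog, Oct4 and Sox2 is fixed by how the regions were chosen, and the difference between Nr5a2 and the others was not tested. Over all merged regions the native form alone was at 5.1% and Nr5a2BiD alone at 2.19%, the same direction, and native Nr5a2 has the longer peak list, which cannot be told apart from form. With the 50000 highest-scoring peaks of each list the fusion had the higher share of the regions then chosen, 29.03% against 25.81%.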

How the results depend on the processing

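No paired analysis was possible because each group has 1 library. A missing peak is not a missing signal, the lists give no read totals, no control library was used and no value has a replicate. Of the alternatives for the counts and shares that answer a comparison, 34 values stayed close to those reported and 44 moved. For the other motifs these numbers were 22 and 14.

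The count of fusion-only regions moved most. A score of 100 or more in all lists gave 490, of which 95 overlapped the 810, with 165 as the next assignment and 13 for the native mirror. The same minimum in the fusion lists alone gave 95. The top 50000 peaks gave 93 and the mirror, then the largest, 139; the top 20000 gave 26 and 51. Summit windows gave 538, with 66 for the mirror. Excluding native peaks within 1 kb left 704, and asking for a base under all 3 fusions left 728.

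The native Nr5a2 share was 25.81% with the top 50000, 26.92% with the top 20000, 36.8% with merged summit windows and 42.35% in the equal windows, which were added after seeing the data. The Nr5a2BiD share was 29.03%, 23.08% and, in the equal windows, 32.22%. The start-site share was 50% (score of 100 in all lists), 27.37% (fusion lists alone), 29.03% and 50% (top 50000 and 20000), 45.54% (summit windows), 26.91% (within 500 bp) and 50.37% (within 5 kb).

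With the top 50000 the octamer was in 7.527%, the SOX motif in 1.075%, the NANOG motif in 6.452% and AP-1 in 11.83%. With the top 20000 these were 19.23%, 3.846%, 0% and 15.38% of 26 regions. AP-1 was in 8.776% with a score of 100 in all lists, the NANOG motif in 5.263% with that score in the fusion lists, and the SOX motif in 0.7435% with summit windows. In motif windows of 50 bp to either side the octamer, SOX, NANOG and AP-1 shares were 3.333%, 0.9877%, 1.235% and 3.951%, and with 200 bp 7.654%, 3.21%, 4.444% and 10.86%, as shorter and longer windows hold fewer and more bases. The cause of the other changes was not tested.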
